A study of Mus musculus with 20 samples.

Results

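The lower part of glycolysis was described through 9 genes that encode its enzymes: Aldoa and Aldoc (aldolase), Tpi1 (triosephosphate isomerase), Gapdh (glyceraldehyde-3-phosphate dehydrogenase), Pgk1 (phosphoglycerate kinase), Pgam1 (phosphoglycerate mutase), Eno1 and Eno2 (enolase) and Pkm (pyruvate kinase). They were chosen by name, as the widely expressed enzymes of these steps with a second isoform for aldolase and enolase. All 9 are among the 47729 gene identifiers listed for every library, and all 9 passed the filter on low counts that left 18731 genes for testing. RNA had been sequenced from mouse kidney cells selected with magnetic beads for Sca-1, the product of Ly6a, which marks stem and progenitor cells. The drug was roxadustat, an anemia treatment that inhibits the prolyl hydroxylases which mark hypoxia-inducible factor (HIF) for degradation.

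There were 6 groups, with 2 control and 2 roxadustat libraries of day 0 and 4 of each kind at day 7 and again at day 21. Day 0 cells were freshly isolated, the control cells from untreated mice and the roxadustat cells from mice injected intraperitoneally at 33 mg/kg for 7 days. Cells of the other groups had been cultured in 20% oxygen for 7 or 21 days, and those labelled roxadustat had the drug in their culture. The concentration in culture, the strain and age of the mice, and whether donors of the cultured roxadustat cells had been injected are not given in the sources used here. The labels do not say whether replicates were separate animals or cultures, so p-values measure only the spread between these libraries. In such bulk libraries fewer cells of a type and less RNA per cell cannot be told apart. Between day 0 and day 7 the time, the move into culture and the makeup of the cells cannot be told apart either.

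Glycolysis splits a phosphorylated hexose into triose phosphates through aldolase and triosephosphate isomerase. Gapdh and Pgk1 then make the first ATP of the lower pathway, Pgam1 and enolase turn the product into phosphoenolpyruvate, and pyruvate kinase makes ATP again together with pyruvate. Many genes of the pathway are known targets of HIF, which binds DNA at short elements with the core ACGTG or GCGTG. In the kidney the proximal tubule makes glucose, whereas most other cells rely on glycolysis with Aldoa, Eno1 and Pkm. Aldoc and Eno2 are known as the aldolase and enolase of the brain.

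Windows around the annotated transcription starts are shown for 4 genes as examples, chosen with the results known. Aldoc, Pgk1 and Eno1 were among the 8 genes that were higher in cultured roxadustat cells, and Eno2 was lower. Tpi1 was also among the higher genes, and its window, not shown, held no match. Each runs 5′ to 3′ along the gene's strand from 250 bases before the start to 50 bases after it (RefSeq, GRCm38.p6). Capitals mark ACGTG or GCGTG read on either strand, so that CACGT and CACGC are the same elements on the other strand.
Aldoc, chr11:78322823-78323122, plus strand: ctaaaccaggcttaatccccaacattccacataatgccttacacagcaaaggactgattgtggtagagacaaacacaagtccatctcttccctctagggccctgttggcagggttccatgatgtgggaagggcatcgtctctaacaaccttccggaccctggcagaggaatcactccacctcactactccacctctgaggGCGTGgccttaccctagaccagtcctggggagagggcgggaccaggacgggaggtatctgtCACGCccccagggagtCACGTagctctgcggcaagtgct
Pgk1, chrX:106186850-106187149, plus strand: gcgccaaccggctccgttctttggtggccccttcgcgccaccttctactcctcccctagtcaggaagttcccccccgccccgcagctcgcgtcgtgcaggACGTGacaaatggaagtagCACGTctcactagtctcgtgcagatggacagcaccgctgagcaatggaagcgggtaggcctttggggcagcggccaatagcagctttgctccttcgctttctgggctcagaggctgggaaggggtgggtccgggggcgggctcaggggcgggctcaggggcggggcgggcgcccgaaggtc
Eno1, chr4:150236947-150237246, plus strand: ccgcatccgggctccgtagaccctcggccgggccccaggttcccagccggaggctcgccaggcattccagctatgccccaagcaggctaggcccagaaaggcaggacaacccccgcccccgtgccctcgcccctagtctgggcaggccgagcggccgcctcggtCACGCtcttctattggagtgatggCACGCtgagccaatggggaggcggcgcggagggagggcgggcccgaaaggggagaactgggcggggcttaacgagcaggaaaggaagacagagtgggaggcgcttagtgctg
Eno2, chr6:124769624-124769923, minus strand: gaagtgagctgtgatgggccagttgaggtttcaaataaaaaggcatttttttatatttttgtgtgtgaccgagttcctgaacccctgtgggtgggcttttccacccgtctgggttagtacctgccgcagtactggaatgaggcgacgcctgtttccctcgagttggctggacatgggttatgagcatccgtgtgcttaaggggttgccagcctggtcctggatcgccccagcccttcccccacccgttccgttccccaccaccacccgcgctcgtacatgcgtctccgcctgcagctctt

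The Aldoc window shown held 3 matches, whose first bases lie at -50, 12 and 28 from the start. A second annotated start of Aldoc has a window with 1 match, at -39. The Pgk1 window held 2 matches, at -150 and -131. In the Eno1 window shown there were 2, at -86 and -62, and the windows of both other Eno1 starts held 2 each as well. No match lay in the Eno2 window, which says only that these letters are not in it. Windows were found for all 9 genes. Those of Gapdh and Pgam1 held 3 matches each, Aldoa had up to 1 and Pkm up to 2 depending on the start used, and the Tpi1 window held none. Of all 32817 windows of the same length, 43.8% held at least 1 match, 20.6% at least 2 and 8.93% at least 3. A match is a description of the letters and not a measured binding site.

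Total counts per library ranged from 8.502 to 19.9 M (mega counts assigned to genes). Ly6a, the gene of the sorted protein, was present in every library, at 158 to 172 CPM in control and 479 to 525 CPM in roxadustat cells at day 7 and at 495 to 550 and 668 to 715 CPM at day 0. CPM are counts per 1 M counts after TMM scaling, which corrects for differences in RNA composition. Fresh cells were rich in tubule transcripts after the sort: 10 proximal tubule markers summed to 42614 to 49855 CPM in control and 57210 to 57408 CPM in roxadustat cells at day 0, against 148 to 275 and 562 to 886 CPM for 9 interstitial fibroblast markers. The 4 control libraries at day 21 formed close pairs, replicates 1 and 2 and replicates 3 and 4. Counts differed within these pairs with a chi-square per degree of freedom of 2.22 and 1.86, and between them with 14.8 to 20.1. With 1 library of each pair kept, a choice made after seeing the data, the same number of the 9 genes was called at day 21 and log2 differences between roxadustat and control ran from -2.18 (Eno2) to 6.45 (Aldoc).

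Levels of different members cannot be compared closely, since several have near-identical copies elsewhere in the genome. Of all stretches of 50 bases in the principal transcript, 82.5% occur in other genes' transcripts for Gapdh, 72.2% for Eno1, 68% for Pgk1, 41.5% for Pgam1 and 34.4% for Pkm. The share is 13.9% for Aldoa, 7.51% for Tpi1, 0.255% for Eno2 and 0% for Aldoc. Gapdh pseudogenes held 117% to 438% of the counts of Gapdh itself in a library. How reads with several matching places were counted is not given in the sources used here, and its part in the levels was not tested. Differences between groups within 1 gene are therefore the main measurements below.

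**Figure D1:**
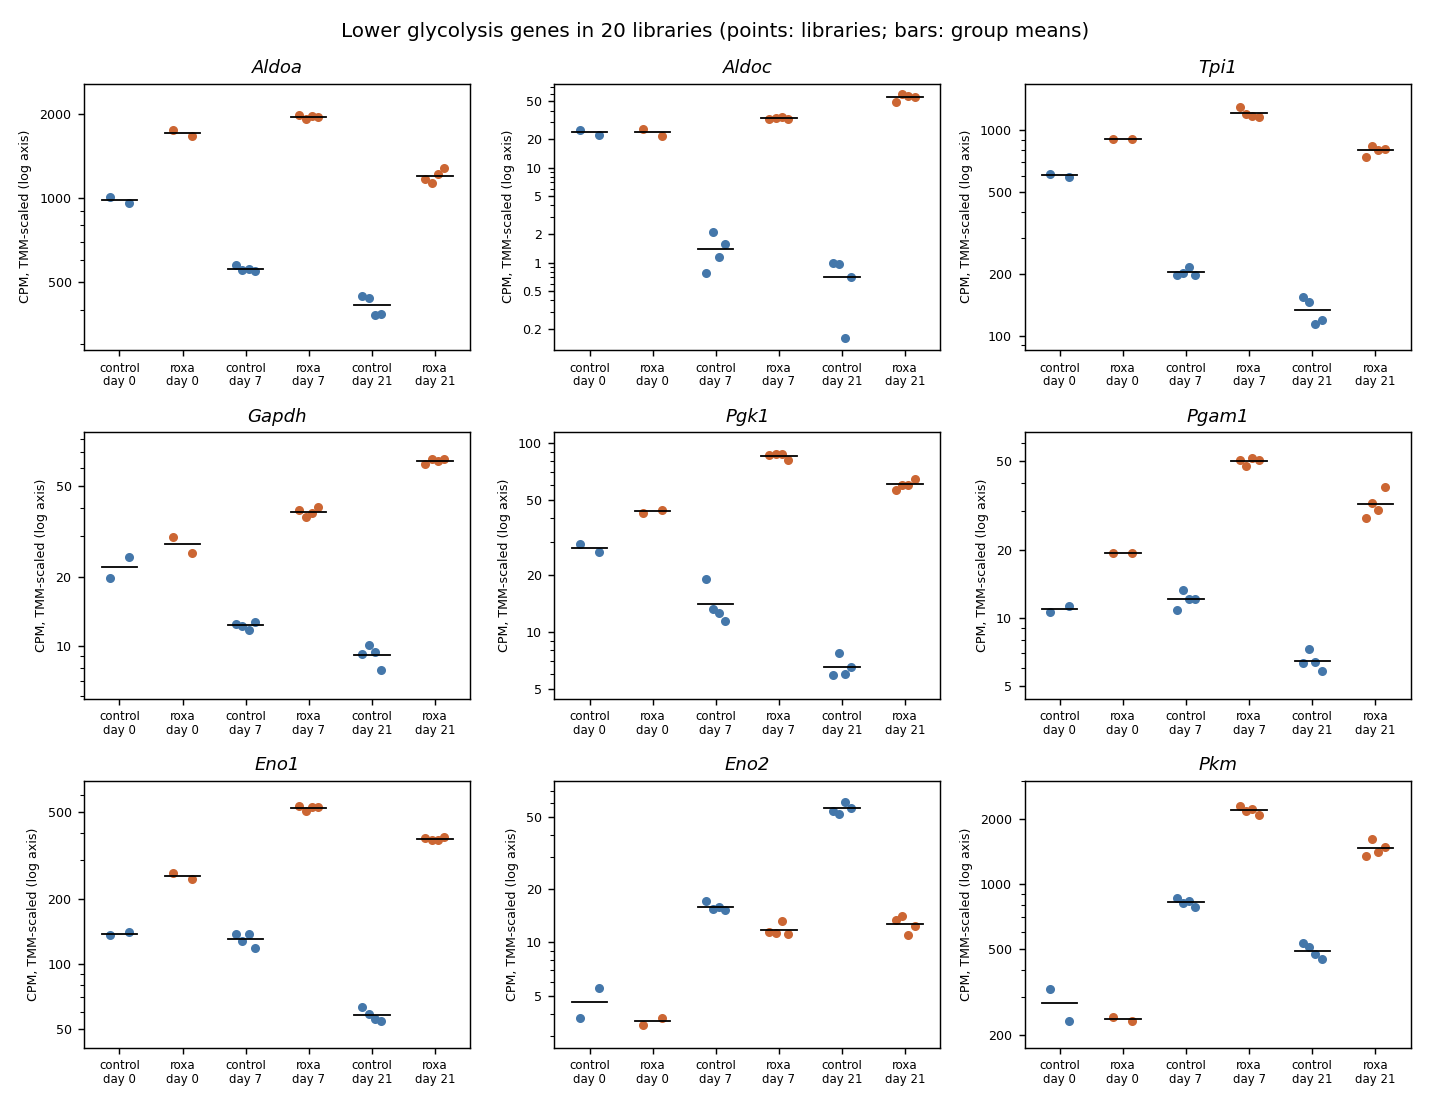
Level of each gene in every library on a log axis of CPM scaled by TMM, by group (blue, control; orange, roxadustat; points are libraries, bars group means). At day 7 and day 21 no roxadustat library of any gene lies within the range of its controls, and Eno2 is the gene whose control libraries are the higher ones. How many of all tested genes separate in this way was not counted.

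Roxadustat cells in culture carried more transcript of 8 of the 9 genes than control cells, and less of Eno2. In comparisons within a time, rose and fell mean higher or lower in roxadustat than in control cells. Aldoc was 23.4-fold higher at day 7 and 74.1-fold higher at day 21, and the other 7 genes that rose were 2.68-fold to 6.15-fold higher at day 7 and 2.91-fold to 9.19-fold higher at day 21. In fresh cells 5 genes, Aldoa, Tpi1, Pgk1, Pgam1 and Eno1, were higher by 1.5-fold to 1.84-fold. Together the 9 genes took 0.158% to 0.172% of all counts in fresh control cells and 0.261% to 0.266% in fresh roxadustat cells. They took 0.179% to 0.194% in control and 0.661% to 0.695% in roxadustat cells at day 7, and 0.098% to 0.117% and 0.441% to 0.5% at day 21.

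These calls stand against many others. How many of all tested genes separate without overlap was not counted, and at day 0 overlap is judged from 2 libraries against 2. At day 0 the edgeR quasi-likelihood test called 5 of the 9 genes higher and none lower (DESeq2 also called none lower, and Pkm alone was lower at an unadjusted p under 0.05), where 2.73% of all tested genes were called higher and 4.11% lower. At day 7 it called 8 higher and 1 lower, against 24.1% and 23.6% of all genes. At day 21 the counts were again 8 and 1, against 30% and 32.9%. The median log2 fold change of the 9 genes was 0.588, 2.01 and 2.58 at day 0, 7 and 21, beside -0.0102, 0.0287 and 0 over all tested genes. The day 0 calls rest on a spread estimated over all 20 libraries. Fitted on the day 0 libraries alone, only Eno1 was called, and the edgeR adjusted p was 0.077 for Aldoa, 0.12 for Tpi1, 0.091 for Pgk1 and 0.083 for Pgam1.

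**Figure D2:**
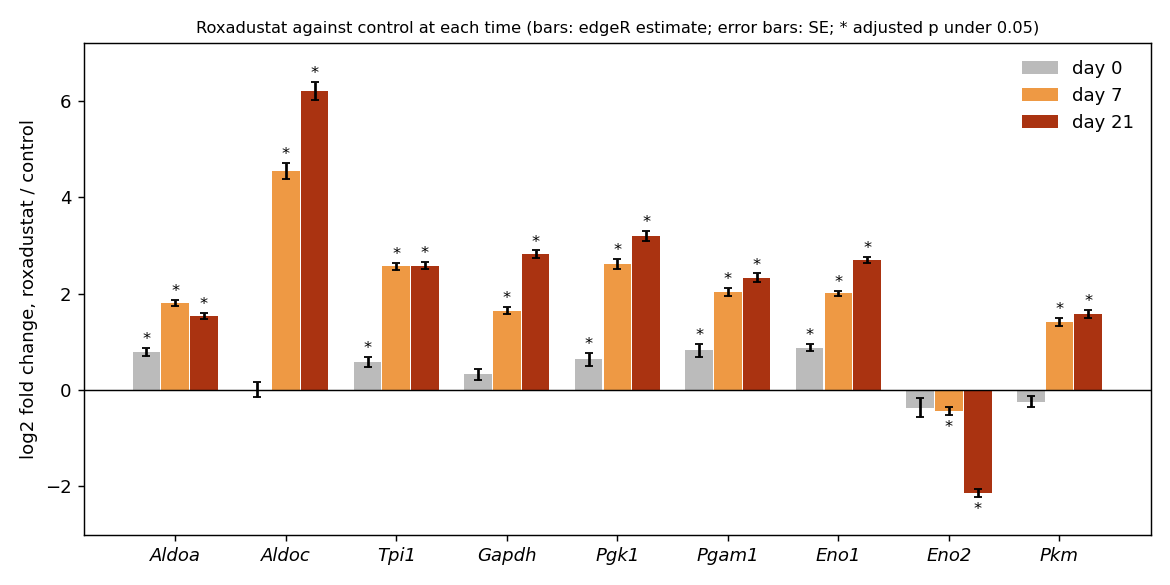
Log2 fold change of roxadustat against control for each gene at day 0, 7 and 21 (bars, edgeR estimate; error bars, SE; asterisks, adjusted p under 0.05). Aldoc has the highest bars in culture, at 4.55 and 6.21, and Eno2 is the gene with downward bars that passed the test, at -0.43 and -2.14.

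Aldoa (ENSMUSG00000030695, chr7:126795234-126800751, minus strand, GRCm38) encodes the aldolase of muscle and most other tissues. Its level was 1016 and 966 CPM in fresh control and 1758 and 1674 CPM in fresh roxadustat cells. At day 7 control libraries held 579, 555, 557 and 550 CPM and roxadustat libraries 1983, 1918, 1967 and 1960 CPM. By day 21 these were 447, 441, 382 and 385 CPM against 1170, 1140, 1224 and 1281 CPM. The roxadustat libraries were the higher ones at every time, with no overlap. Aldoa rose 1.73-fold at day 0 (log2 0.79 ± 0.08 SE, edgeR adjusted p = 2.24e-07), 3.49-fold at day 7 (1.81 ± 0.058, 1.35e-19) and 2.91-fold at day 21 (1.54 ± 0.058, 4.77e-19).

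Aldoc (ENSMUSG00000017390, chr11:78322968-78327781, plus strand) encodes aldolase C. In fresh cells it stood at 25.2 and 21.9 CPM in control and 25.5 and 21.8 CPM in roxadustat libraries. Control cells at day 7 held 0.776, 2.12, 1.14 and 1.56 CPM, from 12, 38, 21 and 29 counts, and roxadustat cells 32.9, 33.6, 34.2 and 32.8 CPM. At day 21 control libraries held 0.983, 0.96, 0.16 and 0.703 CPM, from 16, 16, 2 and 10 counts, and roxadustat libraries 49.2, 59.1, 56.3 and 55.5 CPM. Cultured control cells thus held the gene at few counts, cultured roxadustat cells lay far above them, and the fresh groups overlapped. Aldoc rose 23.4-fold at day 7 (log2 4.55 ± 0.16, edgeR adjusted p = 3.13e-17) and 74.1-fold at day 21 (6.21 ± 0.18, 9.47e-20). The fresh groups differed by 0.01 ± 0.16 (adjusted p = 0.998).

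Tpi1 (ENSMUSG00000023456, chr6:124810586-124814296, minus strand) encodes the enzyme that interconverts the triose phosphates. It was measured at 614 and 595 CPM in control and 912 and 905 CPM in roxadustat cells at day 0. The day 7 values were 199, 202, 216 and 199 CPM in control and 1300, 1204, 1178 and 1159 CPM in roxadustat cells. At day 21 they were 154, 146, 114 and 120 CPM against 739, 844, 802 and 814 CPM. Roxadustat libraries were higher at each time without overlap, and the folds of both culture times were close. Tpi1 rose 1.5-fold at day 0 (log2 0.59 ± 0.099, edgeR adjusted p = 0.000272), 5.93-fold at day 7 (2.57 ± 0.074, 9.68e-21) and 5.99-fold at day 21 (2.58 ± 0.075, 1.15e-21).

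Gapdh (ENSMUSG00000057666, chr6:125161715-125166467, minus strand) encodes the NADH-producing dehydrogenase of the pathway and is widely used as a reference gene. Fresh control libraries held 19.7 and 24.5 CPM and fresh roxadustat libraries 29.9 and 25.5 CPM. After 7 days these were 12.4, 12.2, 11.7 and 12.7 CPM against 39.1, 36.4, 37.8 and 40.3 CPM. After 21 days they were 9.15, 10.1, 9.34 and 7.8 CPM against 62.3, 65.7, 64.2 and 65.1 CPM. The counts of Gapdh were therefore not constant between the cultured groups. Roxadustat and control did not overlap at any time, but at day 0 the nearest libraries were close, at 24.5 CPM in control and 25.5 CPM in roxadustat cells. Gapdh rose 3.13-fold at day 7 (log2 1.65 ± 0.075, edgeR adjusted p = 2.74e-16) and 7.04-fold at day 21 (2.82 ± 0.08, 7.14e-22). At day 0 the difference of 0.33 ± 0.11 was not called (adjusted p = 0.062). Counts of pseudogenes that share stretches of 50 bases with Gapdh were also added, an alternative chosen after seeing the data. The log2 differences were then 0.21, 1.68 and 1.81 at day 0, 7 and 21. Not all pseudogenes found this way are close copies: Gm9522, the one with the highest level, shares 23 such stretches.

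Pgk1 (ENSMUSG00000062070, chrX:106187100-106203699, plus strand) encodes the kinase that makes ATP from the product of Gapdh. Its level in fresh cells was 29.4 and 26.4 CPM in control and 42.9 and 44.2 CPM in roxadustat libraries. Control libraries at day 7 gave 19.1, 13.2, 12.6 and 11.4 CPM and roxadustat libraries 87, 87.6, 87.5 and 81.3 CPM. Those of day 21 gave 5.9, 7.74, 5.99 and 6.53 CPM against 56.6, 60.2, 60.3 and 64.5 CPM. Every roxadustat library lay above every control library of its time. Pgk1 rose 1.56-fold at day 0 (log2 0.64 ± 0.14, edgeR adjusted p = 0.00439), 6.15-fold at day 7 (2.62 ± 0.1, 1.01e-16) and 9.19-fold at day 21 (3.2 ± 0.11, 3.67e-18).

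Pgam1 (ENSMUSG00000011752, chr19:41911923-41918660, plus strand) encodes the non-muscle phosphoglycerate mutase. It was found at 10.6 and 11.3 CPM in control and 19.4 and 19.5 CPM in roxadustat cells at day 0. At day 7 the values were 10.9, 13.3, 12.1 and 12.1 CPM in control and 50.3, 47.4, 51.5 and 50.4 CPM in roxadustat cells. They were 6.33, 7.26, 6.39 and 5.83 CPM against 28, 32.5, 30.4 and 38.3 CPM at day 21. Again the groups did not overlap at any time. Pgam1 rose 1.77-fold at day 0 (log2 0.83 ± 0.13, edgeR adjusted p = 0.000114), 4.12-fold at day 7 (2.04 ± 0.082, 1.71e-17) and 5.01-fold at day 21 (2.33 ± 0.094, 2.7e-18).

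Eno1 (ENSMUSG00000063524, chr4:150236721-150248879, plus strand) encodes the enolase found in most tissues. Libraries of fresh cells held 136 and 140 CPM in control and 262 and 246 CPM in roxadustat. Those of day 7 held 138, 127, 138 and 118 CPM in control and 534, 505, 530 and 527 CPM in roxadustat. At day 21 the values were 63.3, 58.8, 55.6 and 54.8 CPM against 380, 373, 372 and 383 CPM. Control levels at day 0 and day 7 overlapped, whereas roxadustat and control did not overlap at any time. Eno1 rose 1.84-fold at day 0 (log2 0.88 ± 0.076, edgeR adjusted p = 1.06e-08), 4.02-fold at day 7 (2.01 ± 0.054, 2.36e-21) and 6.48-fold at day 21 (2.7 ± 0.057, 1.18e-24).

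Eno2 (ENSMUSG00000004267, chr6:124760053-124769673, minus strand) encodes the neuron-specific enolase and went the other way. It was low in fresh cells, at 3.77 and 5.53 CPM in control and 3.44 and 3.8 CPM in roxadustat libraries, which overlapped. At day 7 control libraries held 17.1, 15.3, 15.7 and 15.2 CPM and roxadustat libraries 11.5, 11.3, 13.2 and 11.1 CPM. By day 21 control libraries had reached 54.5, 52.5, 61.2 and 56.6 CPM, while roxadustat libraries held 13.3, 14, 11 and 12.4 CPM. The roxadustat libraries were the lower ones at both culture times without overlap. Eno2 fell 1.35-fold at day 7 (log2 -0.43 ± 0.088, edgeR adjusted p = 0.000207) and 4.39-fold at day 21 (-2.14 ± 0.085, 1.84e-18). Fresh cells differed by -0.36 ± 0.19 (adjusted p = 0.314).

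Pkm (ENSMUSG00000032294, chr9:59656368-59679375, plus strand) encodes the pyruvate kinases M1 and M2, which these gene counts do not separate. The fresh groups overlapped, at 327 and 232 CPM in control and 241 and 232 CPM in roxadustat cells. After 7 days control libraries held 862, 815, 834 and 784 CPM and roxadustat libraries 2311, 2198, 2234 and 2084 CPM. After 21 days these were 531, 509, 472 and 451 CPM against 1347, 1621, 1415 and 1483 CPM. Both culture times separated the groups. Pkm rose 2.68-fold at day 7 (log2 1.42 ± 0.078, edgeR adjusted p = 1.71e-14) and 2.99-fold at day 21 (1.58 ± 0.079, 3.9e-16). At day 0 the difference of -0.24 ± 0.11 was not called (adjusted p = 0.23), but without control replicate 2 of that day it was -0.47 with an adjusted p of 0.00287.

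Markers of several cell types moved with these differences, to be read beside the shares of all tested genes called at each time. At day 21 all 9 general epithelium markers were higher in roxadustat than in control cells, with sums of 16.4 to 19.7 CPM in control and 412 to 427 CPM in roxadustat. Of 10 proximal tubule markers 5 were higher, with sums of 7.06 to 9.82 CPM in control and 281 to 292 CPM in roxadustat. All 9 interstitial fibroblast markers were lower in roxadustat cells at that time (27657 to 33698 CPM in control against 1799 to 2876 CPM). So were all 7 macrophage markers (278 to 328 against 15.6 to 17.5 CPM), 4 of 7 endothelium markers (311 to 353 against 91.5 to 99.4 CPM) and 4 of 7 cell cycle markers (131 to 138 against 89.4 to 97.6 CPM). From day 7 to day 21 all 9 epithelium markers fell within control cells, and 7 fell and 2 rose within roxadustat cells. All 9 fibroblast markers rose within control cells over that time, and 1 rose and 3 fell within roxadustat cells. Of all tested genes 34.5% rose and 34.3% fell in control cells, and 28.6% and 32.9% in roxadustat cells. At day 7 all 7 macrophage markers fell (329 to 334 CPM in control, 14.7 to 16.6 CPM in roxadustat), as did all 7 cell cycle markers (469 to 487 against 130 to 139 CPM) and 5 of 9 fibroblast markers (5264 to 5559 against 2506 to 3212 CPM). In the same comparison 8 of 9 epithelium markers rose (217 to 227 against 497 to 518 CPM), 4 of 10 proximal tubule markers rose (83.1 to 89.5 against 240 to 268 CPM), and 3 endothelium markers rose and 3 fell (89.1 to 95.1 against 37.8 to 46.7 CPM). At day 0 the 7 macrophage markers rose (73.5 to 89.6 against 178 to 213 CPM) and 5 fibroblast markers rose, while the 7 endothelium markers fell (201 to 227 against 121 to 125 CPM) and 5 epithelium markers fell (3311 to 3401 against 2636 to 2774 CPM). Of these 6 lists only the proximal tubule markers held genes at 0 in a whole group, 3 in control and 1 in roxadustat cells at day 21. The part of such shifts in the levels of the 9 genes was not tested.

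The size of the roxadustat difference was compared between times in the same model. From day 0 to day 7 it grew for 8 of the 9 genes, against 15.5% of all tested genes called higher and 13.4% called lower. The growth was 4.54 ± 0.24 on the log2 scale for Aldoc, 1.98 ± 0.12 for Tpi1, 1.98 ± 0.17 for Pgk1, 1.66 ± 0.14 for Pkm and 1.01 to 1.32 for Gapdh, Pgam1, Eno1 and Aldoa. For Eno2 the change of -0.07 was not called (edgeR adjusted p = 0.868). The day 0 and culture contrasts differ in how the drug was given, so that time and route cannot be told apart here.

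From day 7 to day 21 the difference grew further for Aldoc by 1.66 (edgeR adjusted p = 0.000175), Gapdh by 1.17 (8.92e-10), Eno1 by 0.69 (1.69e-08) and Pgk1 by 0.58 (0.00333). It turned further down for Eno2, by -1.71 (3.21e-12). Aldoa was the gene whose difference shrank, by -0.26 (0.0082), a change that became 0.02 with library size alone as the scaling and -0.26 again relative to the shift of 0.28 which that scaling gives the median of all genes. Tpi1 (0.01), Pgam1 (0.28) and Pkm (0.16) did not pass the test, with adjusted p of 0.937, 0.0735 and 0.256. These 4 higher and 2 lower calls stand beside 20.9% and 23.8% of all tested genes. With pseudogene counts added, the growth for Gapdh was 0.13 (0.213).

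The levels of control cells declined in culture for most of the genes. Between day 0 and day 7 Aldoc fell 16.5-fold in control cells, Tpi1 2.96-fold, Pgk1 2-fold, Gapdh 1.8-fold and Aldoa 1.77-fold. Eno2 and Pkm rose 3.41-fold and 2.94-fold. These are 2 higher and 5 lower calls, against 37% and 39.5% of all genes, a background in which most genes changed between fresh and cultured cells. Pgam1 (log2 0.15, edgeR adjusted p = 0.261) and Eno1 (-0.08, 0.248) were not called, and Eno1 was at 0.34 with library size alone, which shifts the median of all genes by 0.42. From day 7 to day 21 the 8 genes other than Eno2 fell, by 1.34-fold (Gapdh) to 2.24-fold (Eno1), while Eno2 rose 3.55-fold, against 34.5% of genes called higher and 34.3% lower. The fall of Aldoc, 1.92-fold, was not called without control replicate 2 of day 7 (edgeR adjusted p = 0.0597), and Gapdh was 0.18 higher on the log2 scale with pseudogene counts added.

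In roxadustat cells all 9 genes rose from day 0 to day 7, from 1.14-fold for Aldoa to 9.32-fold for Pkm, with Eno2 at 3.25-fold and Pgam1 at 2.57-fold, against 37.1% of genes called higher and 37.6% lower. The rise of Aldoa was not called without roxadustat replicate 2 of day 0 (edgeR adjusted p = 0.111) or by DESeq2 (0.18). Between day 7 and day 21, 6 genes fell, from 1.39-fold (Eno1) to 1.63-fold (Aldoa), while Gapdh rose 1.67-fold and Aldoc 1.65-fold, against 28.6% higher and 32.9% lower of all genes. Eno2 was not called (0.12, adjusted p = 0.267). In order of level, roxadustat day 7 was the highest group for Aldoa, Tpi1, Pgk1, Pgam1, Eno1 and Pkm, roxadustat day 21 for Aldoc and Gapdh, and control day 21 for Eno2.

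Within the aldolases, the share of Aldoc was set beside Aldoa per kilobase of exon, taken over all annotated exons of each gene. In fresh cells Aldoc made up 2.07% ± 0.131 (SD, n = 2) of the pair in control and 1.21% ± 0.0927 in roxadustat cells. The share was 0.223% ± 0.0945 (n = 4) in control cells at day 7 and 0.147% ± 0.075 at day 21, while roxadustat cells held 1.5% ± 0.0404 and 3.92% ± 0.359. The ranges did not overlap, at 0.12% to 0.34% against 1.46% to 1.54% at day 7 and 0.0373% to 0.196% against 3.62% to 4.42% at day 21. An exact two-sided permutation test over the libraries gave p = 0.0286 at both culture times, the smallest p that 4 against 4 allow, and 0.0429 after adjustment over 6 share tests. It counts the 4 control libraries of day 21 as separate, although they formed close pairs. The test was not repeated with 1 library of each pair. At day 0 no p under 0.333 is possible, so those shares are values only.

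**Figure D3:**
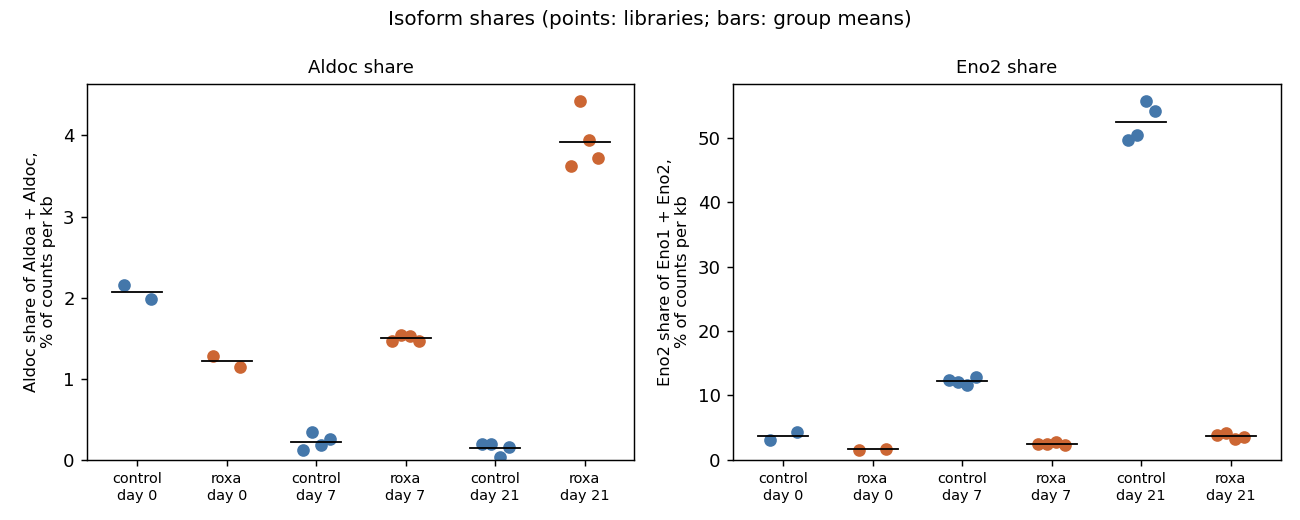
Share of Aldoc in the sum of Aldoa and Aldoc (left) and of Eno2 in the sum of Eno1 and Eno2 (right), in % of counts per kb of exon, for every library by group (bars, group means). The Eno2 share lies between 49.6% and 55.7% in control libraries at day 21 and between 3.28% and 4.13% in roxadustat libraries of that day.

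Among the enolases the share of the minor isoform was lower, not higher, in roxadustat cells. Eno2 made up 3.69% ± 0.87 (SD, n = 2) of Eno1 plus Eno2 in fresh control and 1.61% ± 0.183 in fresh roxadustat cells. At day 7 the share was 12.2% ± 0.526 (n = 4) in control and 2.51% ± 0.193 in roxadustat cells. Control libraries of day 21 held 49.6%, 50.5%, 55.7% and 54.2%, and roxadustat libraries 3.84%, 4.13%, 3.28% and 3.57%. Counts of both enolases per kb of all annotated exons were thus alike in control cells at day 21, which depends on the length used, as given below. The difference was -9.72 percentage points at day 7 and -48.8 at day 21, each with an exact permutation p of 0.0286 (0.0429 adjusted). The limit from the close pairs of control libraries at day 21 holds here as well. Both isoforms changed at day 21, Eno1 being 6.48-fold higher and Eno2 4.39-fold lower in roxadustat cells.

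The absolute size of both shares rests on how length is counted. Per kb of the longest transcript the roxadustat share of Aldoc was 0.939% at day 7 and 2.48% at day 21. The control shares were 0.139% and 0.0919%. Another length was the number of 50-base stretches of the principal transcript that occur in no other gene. All counts of a gene were divided by it, so no reads were counted over unique stretches alone. By this length the Aldoc shares were 0.778% and 2.06% in roxadustat and 0.115% and 0.0761% in control cells. The control share of Eno2 at day 21 was then 16.3% and the roxadustat share 0.671%, and at day 7 the shares were 2.39% and 0.45%. With raw counts the control share at day 21 was 49.2%, and per kb of the longest transcript 41.3%. The change in the ratio of the isoforms does not depend on length: the log2 ratio of Eno2 to Eno1 was lower in roxadustat cells by -1.21 at day 0, -2.44 at day 7 and -4.85 at day 21. That of Aldoc to Aldoa differed by -0.79, 2.84 and 4.93.

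Further isoforms of the same steps were measured as well, with shares again in counts per kb of exon. The limit on comparing levels of different genes holds for these shares, and no other length is given for them. Of the 50-base stretches of Pgam1, 41.5% occur in other genes' transcripts, and Pgam2 was not searched for copies. Eno3, the enolase of muscle, held 15% of the enolase family in control and 2.66% in roxadustat cells at day 7, and 8.53% and 2.34% at day 21. It fell 1.78-fold in roxadustat cells at day 7 (edgeR adjusted p = 1.25e-05) and stood at 3.69 ± 0.23 and 3.03 ± 0.813 CPM at day 21 (0.0963). Pgam2, the muscle mutase, held 93% of Pgam1 plus Pgam2 in fresh control cells and 84.9% in fresh roxadustat cells. In culture it held 16.4% and 8.82% at day 7 and 38.3% and 10.7% at day 21. Pklr, the pyruvate kinase of liver and red cells, held 7.95% and 9.28% of Pkm plus Pklr at day 0 and at most 1.17% as a group mean in culture. Neuron markers, listed because Eno2 is a neuronal enolase, summed to 9.58 to 12.1 CPM in control cells at day 21 with 3 of 10 at 0, and to 11.4 to 13 CPM in roxadustat cells of that day with 1 at 0. At day 7 the sums were 28 to 32.1 CPM in control and 15.5 to 17.8 CPM in roxadustat cells, with none at 0. The part of neuronal cells in the level of Eno2 was not tested.

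**Figure D4:**
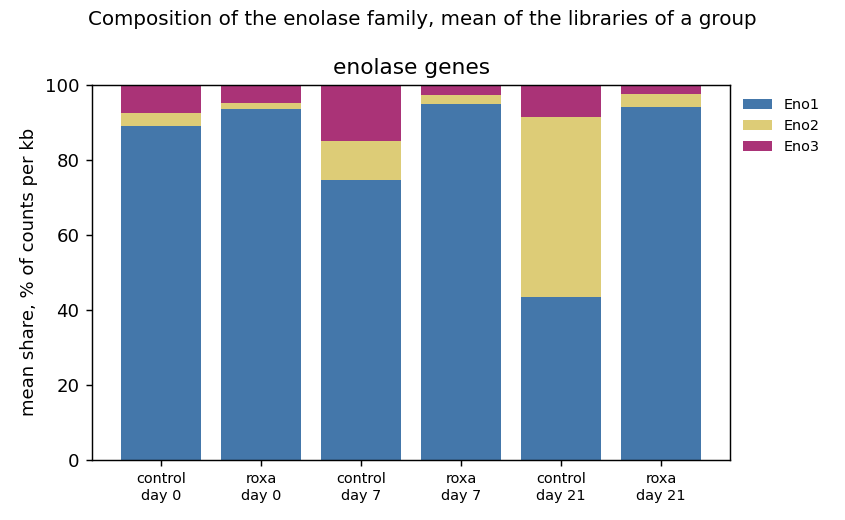
Mean share of Eno1, Eno2 and Eno3 in the enolase family, in % of counts per kb of exon, by group. Eno1 fills 43.4% of the bar of control cells at day 21 and 94% of that of roxadustat cells, and Eno2 fills 48% and 3.62%. The sizes of these shares rest on the length used.

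Among the 7 tested genes of 10 listed as other isoforms of the lower steps, 6 rose and 1 fell at day 7 and 5 rose at day 21, with median log2 differences of 0.97 and 0.91. Of all tested genes 24.1% were called higher and 23.6% lower at day 7, and 30% and 32.9% at day 21. At day 0, 1 of these isoforms was called, Pgam2, which fell 1.38-fold (edgeR adjusted p = 0.0305), beside 2.73% of all tested genes called higher and 4.11% lower. Pklr rose 1.96-fold at day 7 and 58.3-fold at day 21, when it stood at 0.186 ± 0.0407 CPM in control and 11.2 ± 1.01 CPM in roxadustat cells. Bpgm, which makes the bisphosphoglycerate that regulates hemoglobin, rose 1.49-fold and 1.59-fold, and Eno4, a sperm enolase, 1.77-fold and 4.59-fold. Pgam2 rose 2.02-fold at day 7 and stood at 1.71 ± 0.322 and 1.61 ± 0.15 CPM at day 21 (edgeR adjusted p = 0.805). Aldoart1 and Gapdhs, which are known from the testis, were called higher at both times at levels under 1 CPM. Counts of Aldoart1 summed to 11 in control and 35 in roxadustat libraries at day 7, and to 2 and 23 at day 21. It shares 94 stretches of 50 bases with the far more abundant Aldoa, and the part of Aldoa reads in its counts was not tested. Aldoart2, Pgk2 and Eno1b were too low to be tested.

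The steps above and below held calls in both directions, to be read beside the shares of all tested genes given above. Of 15 genes of glucose entry and upper glycolysis, 10 rose and 3 fell at day 7, 9 rose and 4 fell at day 21, and 2 rose and 4 fell at day 0, with median log2 differences of 1.27, 1.14 and -0.09. Pfkl, a phosphofructokinase subunit, rose 16.9-fold at day 7 and 12.8-fold at day 21, above every one of the 9 genes but Aldoc. Slc2a1, the glucose transporter GLUT1, rose 5.14-fold and 8.06-fold, Pfkp 3.64-fold and 2.7-fold, and Gpi1, which makes fructose phosphate, 3.5-fold and 2.2-fold. At the other end, 8 of 11 genes of pyruvate and lactate fate rose and 1 fell at day 7, 7 rose and 1 fell at day 21, and 3 rose and 1 fell at day 0 (medians 0.68, 0.42 and 0.05). Slc16a3, a lactate exporter, rose 128-fold and 152-fold in culture, and Pdk1, the kinase that shuts pyruvate dehydrogenase, 33.9-fold and 14.6-fold. Ldha, the lactate dehydrogenase subunit of glycolytic tissues, rose 5.97-fold and 4.6-fold and Ldhb 1.6-fold and 6.13-fold.

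Genes that run the triose steps backward or draw from them also held calls in both directions, to be read beside the same shares of all tested genes. Of 7 genes of gluconeogenesis, 3 rose and 1 fell at day 7, 3 rose and 2 fell at day 21, and 1 rose at day 0, with medians of 1.11 at day 7 and -0.04 at day 0. No day 21 median is given, since G6pc and Fbp1 had 0 counts in both groups. Slc37a4, the glucose-6-phosphate transporter, rose 2.6-fold and 2.9-fold, while Pcx, pyruvate carboxylase, rose 2.08-fold at day 7 and fell 1.45-fold at day 21. Pck2 fell 1.14-fold and 1.11-fold, and Fbp2 rose 8.06-fold at day 7, with 4 counts in control and 42 in roxadustat libraries. Of 6 genes of side branches from the triose phosphates, 1 rose and 5 fell at day 7, 4 rose and 1 fell at day 21, and 1 rose and 2 fell at day 0 (medians -0.43, 0.37 and -0.38). Psat1, Psph and Phgdh of serine synthesis fell 2.44-fold, 1.31-fold and 1.4-fold at day 7. At day 21 Psph and Phgdh rose 1.5-fold and 1.84-fold, and Psat1 rose 1.12-fold, at an edgeR adjusted p that rounds to the threshold of 0.05. Gpd1, which feeds glycerol synthesis, rose 1.69-fold and 13.4-fold.

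Across the 20 libraries, the genes closest to each member in level were described by Pearson's r of log2 CPM over 11353 genes with a mean of at least 5 CPM. The libraries share groups, so r mostly reflects the 6 group levels. In 3 pairs each gene was among the 3 nearest of the other: Aldoa and Tpi1 (r = 0.986), Pgam1 and Eno1 (0.985) and Pgk1 and Eno1 (0.979). Tpi1 was also the third nearest of Pgk1 (0.974), but not the reverse. Aldoa was next closest to Ldha (0.974) and Mif (0.967), a cytokine gene, and Tpi1 to Apln (0.979), which encodes the peptide apelin, and Epm2a (0.978), which encodes the glycogen phosphatase laforin. Gapdh lay closest to Egln3 (0.979), a HIF prolyl hydroxylase gene, then BC067074 (0.969) and Bbx (0.966). Pgk1 and Aldoc both had Vldlr, a lipoprotein receptor gene, among their neighbours (0.984 and 0.97), and Aldoc also Gsta3 (0.978), a glutathione transferase gene, and Ppp4r4 (0.965). Pgam1 was near Fam162a (0.985) and Polr3g (0.977), and the latter was also near Eno1 (0.974).

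Eno2 and Pkm had other neighbours. Eno2 was closest to Npc1 (0.989), a cholesterol transport gene, Jam2 (0.989), a junction protein gene, and Lpar1 (0.987), a lysophosphatidic acid receptor gene. Its r with the other members was negative for 7 of them, from -0.478 (Pgam1) to -0.734 (Tpi1), and 0.146 with Pkm. Pkm was closest to G6pdx (0.985), the entry enzyme of the pentose phosphate pathway, Map2k1 (0.985), a kinase gene, and Hilpda (0.982), a lipid droplet gene. With the other members, Eno2 left out, its r ran from 0.366 (Aldoc) to 0.736 (Pgam1).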

How the data were processed

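The authors deposited 1 file per library with raw read counts per Ensembl gene. Per the submitters' processing notes, reads were handled with bcl2fastq (version not given), STAR 2.5.2a and featureCounts 1.5.0-p1 on the mm10 genome. The annotation release and the treatment of reads with several matches are not given in the sources used here. Time and treatment labels gave the groups. Of the 47729 identifiers, 47310 were matched in GENCODE M21 (GRCm38), which gave symbols, coordinates and exon lengths and may not be the authors' release. Promoter windows are from RefSeq (GRCm38.p6).

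With edgeR 4.0.16 in R 4.3.3, 1 model was fitted to the counts of the 20 libraries (filterByExpr, TMM scaling, robust quasi-likelihood F test, Benjamini-Hochberg adjustment over all 18731 tested genes, threshold 0.05). Totals were 8.502 to 19.9 M counts. The biological coefficient of variation at day 0 was 16.2% in control and 9.01% in roxadustat libraries, and 4.07% to 9.11% in culture. Each SE was derived from its fold change and F, and thus restates the test. Shares of Aldoc and Eno2 were tested with exact two-sided permutations over libraries, adjusted over 6 tests. Near-identical copies were searched as exact matches of 50 bases in other genes' transcripts, so that diverged copies with few matches are included. The steps were tested on simulated data. No sample was left out; 1 gene of the lists is not reported here.

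The 9 genes and all lists were chosen with earlier results of these data known. Named are all 9 genes, up to 4 genes by p at day 7 or day 21 of each pathway list, every tested gene of the list of other isoforms, and 3 nearest genes per member. Ly6a, G6pc, Fbp1 and the untested isoforms fall outside this rule. Alternatives were scaling by library size alone, by the upper quartile or by DESeq2's size factors, no filter and a mean of at least 1 CPM, DESeq2 1.42.0, a replicate block, only the groups compared, a threshold of 0.01, Eno1b added to Eno1, other lengths for shares and leaving out each library. Added after seeing the data were copies' counts, 1 library per close pair and lengths of unique stretches.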

Additional observations from a re-analysis of the deposited data

Results flagged for a closer look

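In culture, 2 libraries stood away from the other 3 of their group. Tpi1 was 216 CPM in replicate 3 of control cells at day 7, where the others held 199 to 202 CPM, with a gap of 0.837 of the group's range. Pgk1 was 81.3 CPM in replicate 4 of roxadustat cells at day 7, where the others held 87 to 87.6 CPM, with a gap of 0.914. Both gaps pass Dixon's critical value for 4 libraries. Of 44 groups checked, chance alone gives such a gap in about 1 in 20.

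The difference between roxadustat and control cells itself differed between times for most of the genes, by the edgeR test of the interaction. From day 0 to day 7 it changed by 1.01 on the log2 scale for Aldoa, 4.54 for Aldoc, 1.98 for Tpi1, 1.32 for Gapdh, 1.98 for Pgk1, 1.22 for Pgam1, 1.13 for Eno1 and 1.66 for Pkm. From day 7 to day 21 it changed by -0.264 for Aldoa, 1.66 for Aldoc, 1.17 for Gapdh, 0.581 for Pgk1, 0.688 for Eno1 and -1.71 for Eno2. Of all tested genes 15.5% were called higher and 13.4% lower for the change from day 0 to day 7. For the change from day 7 to day 21 these shares were 20.9% and 23.8%.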

How the results depend on the processing

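At day 7 and day 21 all 9 genes were called between roxadustat and control under every alternative run, and for the change from day 0 to day 7 always 8. In the main fit 24.1% of all tested genes were called higher and 23.6% lower at day 7, and 30% and 32.9% at day 21. For the change from day 0 to day 7 these shares were 15.5% and 13.4%. Day 0 calls numbered 5 and ranged from 1 to 7: fitted on only the groups compared, 1 gene remained, Eno1. Leaving out 1 library gave 5 to 7 calls at day 0 (7 without control replicate 2), with Gapdh called (edgeR adjusted p = 0.0129) and Pkm called lower. Gapdh at day 0 was also called without roxadustat replicate 2 (0.0445), with library size alone (0.03), upper quartile (0.0392), a mean of at least 1 CPM (0.0478) and DESeq2 (0.0457). Calls ranged over the alternatives from 5 to 8 for day 21 minus day 7, 7 to 9 for control day 7 against day 0, and 8 to 9 for the other time comparisons. These counts are to be read beside the shares of all tested genes given above with each comparison. The tally that follows includes alternatives that could move few genes, such as Eno1b added to Eno1, where 81 values kept direction and call. A threshold of 0.01 cannot change a direction. Of 1602 values of single genes under an alternative, 1564 kept their direction and side of the threshold, 22 gained a call, 13 lost one and 3 turned. The latter are Aldoa for day 21 minus day 7 (0.0178) and Eno1 in control day 7 against day 0 (0.342) with library size alone, and Gapdh in control day 21 against day 7 with copies' counts added (0.183); the causes were not tested. Aldoa for day 21 minus day 7 was not called with the upper quartile either (-0.183, adjusted p = 0.0596). Its rise from day 0 to day 7 in roxadustat cells was not called with DESeq2 size factors (0.225) or a mean of at least 1 CPM (0.0682).

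Library size alone shifted the median of all genes by 0.348 at day 21, 0.281 for day 21 minus day 7, 0.425 and -0.199 for control cells over time and 0.437 for roxadustat day 7 against day 0; the upper quartile shifted control day 7 against day 0 by 0.112. Higher and lower calls of all genes were then 699 and 524 at day 0 (511 and 769 with TMM), 9372 and 3549 at day 21 (5616 and 6165), 6504 and 2501 for day 21 minus day 7 (3919 and 4463), 9073 and 5645 for control day 7 against day 0 (6925 and 7401), 5063 and 8172 for control day 21 against day 7 (6456 and 6421), and 9479 and 5201 for roxadustat day 7 against day 0 (6947 and 7035).

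At day 0 the Aldoc share differed by -0.86 percentage points, by -0.542 with the longest transcript's length and -0.45 with unique stretches. The alternative with a further gene in the denominator is reported for the Eno2 share only. The Eno2 share differed by -2.08, by -1.35 with the longest transcript and -0.383 with unique stretches. Deviations of same-numbered libraries had r from -0.179 to 0.0582, and those of other pairs of a day r from -0.117 to 0.158. At day 0, with 2 libraries per arm, every r is 0.0582 or -0.0582. Whether the numbers pair libraries is not given, and such values cannot exclude it. A replicate block left all counts of calls at 5, 9 and 9 for day 0, 7 and 21 and changed no call of a member. For shares, the exact sign-flip permutation within numbers gave p = 0.125 in culture, the smallest 4 pairs allow, and 0.5 at day 0.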
